A study of Mus musculus with 5 samples.

Results

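The 40 genes described here encode the machinery of mitosis and chromosome segregation: mitotic kinases and their regulators, kinetochore and checkpoint proteins, spindle motors and midzone proteins, and the cohesin and condensin complexes with topoisomerase II. They were taken by function, as a list of gene symbols, and were looked up among the 54838 genes listed per library through GENCODE M21, the mouse gene annotation. All 40 were found and all 40 passed the filter on low reads, among 14896 genes tested. Total RNA was sequenced after removal of ribosomal RNA from N2a cells, an established mouse neuroblastoma line, transfected with an siRNA against Ewsr1 (siEwsr1, 3 libraries) or with a control siRNA (siCtrl, 2 libraries). Both groups received 2 pulses of lipid transfection, the second followed by harvest 24 hours later. No engineered allele is named for either group, the labels do not say how many siRNA species each reagent held, and separate cultures are not stated for the replicates. The p-values therefore reflect how much these libraries differ, which may be technical spread.

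Mitosis follows S phase, in which the genome is copied. Cohesin then holds the sister chromatids together, condensin and topoisomerase II compact and disentangle them, kinetochores join centromeres to spindle microtubules, and the spindle assembly checkpoint holds back separase until each chromosome is attached. Many genes for these proteins, though not all, are transcribed late in the cell cycle. Many of their promoters carry a cell cycle genes homology region (CHR), the element bound by the DREAM and MuvB complexes. It often lies near CCAAT boxes bound by NF-Y, whereas many S phase genes carry E2F sites. The protein made by the human gene EWSR1 has been reported to bind Aurora B and to help place it at the midzone, and loss of the gene in zebrafish was reported to disturb mitotic spindles.

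Promoters of the list are shown to make that class visible, since the members were not chosen by sequence. The RefSeq table of GRCm38.p6 promoters, each 300 bases long around the start site, held 32 of the 40 genes. The 30-base windows below read 5′ to 3′ on the strand of the gene, with a match to the CHR element TTTGAA in capitals. Cdk1 and Ccnb2 each have 2 matches, of which 1 is shown. The Cdk1 match shown begins 71 bases before the start site and the other 15 bases before it. Matches were found by sequence alone, and their function was not tested.
Cdk1 (chr10:69352966-69352995, minus strand): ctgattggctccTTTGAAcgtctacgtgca
Ccnb2 (chr9:70421533-70421562, minus strand): agcggcgcggtaTTTGAAtcgcggaccggg
Plk1 (chr7:122159453-122159482, plus strand): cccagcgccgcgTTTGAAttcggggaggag
Aurka (chr2:172370521-172370550, minus strand): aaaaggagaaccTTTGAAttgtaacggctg
Cdc20 (chr4:118437344-118437373, minus strand): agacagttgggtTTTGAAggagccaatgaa
Cenpa (chr5:30666890-30666919, plus strand): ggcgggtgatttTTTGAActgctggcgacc
Prc1 (chr7:80294434-80294463, plus strand): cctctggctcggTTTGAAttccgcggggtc
Kif23 (chr9:61946780-61946809, minus strand): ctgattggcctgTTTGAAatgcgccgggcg

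The element TTTGAA, searched on both strands, was present in 22 of 32 promoters of the list (68.8%), in 40 of 94 promoters of other mitosis genes (42.6%), in 6 of 44 S phase promoters (13.6%), in 11.8% of the promoters of all genes tested and in 18.1% of all promoters in the table. The variant TTCGAA was present in 4 of the 32 (12.5%), Bub1 and Cdc25b among them, against 9.57% of other mitosis genes and 2.1% of tested genes. CCAAT, on either strand, was present in 24 of the 32 (75%), in 55.3% of those of other mitosis genes, in 59.1% of S phase promoters and in 39.6% of those of tested genes. Both TTTGAA and CCAAT were present in 62.5% of the list, 27.7% of promoters of other mitosis genes, 6.82% of S phase promoters and 5.1% of those of tested genes. The E2F sites TTGGCGC or TTCCCGC were present in 4 of the 32 (12.5%), against 26.6% of promoters of other mitosis genes, 23 of 44 S phase promoters (52.3%) and 12.9% of those of tested genes. Matches were counted separately for each motif and can share letters, since CCAAT read on the other strand is ATTGG, whose last letters open TTGGCGC, and CCAAT ends in the T that can open TTTGAA. The 22 genes with TTTGAA had a median log2 fold change of 0.01 (-0.29 to 0.28) and the 10 without it a median of 0.10 (-0.11 to 0.28). Cdc25c, Aurkb, Incenp, Spc24, Tpx2, Kif20a, Rad21 and Smc4 have no entry in the table.

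The libraries held 15045774, 21339459 and 17475740 counted reads for siEwsr1 and 15766280 and 17314511 for siCtrl, and the 40 genes took 0.78% to 0.880% of reads in siEwsr1 and 0.814% to 0.822% in siCtrl. The least covered member of the list still had 408 reads in the library where it was lowest. Ewsr1 (chromosome 11) checked the labels: it stood at 35.7, 36.3 and 37.6 RPKM in siEwsr1 libraries and at 71.7 and 72.3 RPKM in siCtrl libraries, lower in siEwsr1 by a log2 fold change of -0.95 with SE 0.08 and an adjusted p of 7.67e-04 in limma. Without siCtrl replicate 2 that p was 0.0544. RPKM are reads relative to exonic length in kilobases and to the library's counted reads, and fold changes are on the log2(RPKM + 0.1) scale after trimmed-mean scaling between libraries. Of all 14896 genes, 366 rose (2.46%) and 402 fell (2.70%) at an adjusted p under 0.05, with a median log2 fold change of -0.01. Leaving out 1 library in turn, 2 to 1905 rose and 3 to 1848 fell, the highest counts coming without siEwsr1 replicate 3. On the first principal component siEwsr1 replicates 1, 2 and 3 lay at 16.4, 33.7 and -0.20 and the siCtrl libraries at -21.3 and -28.6, so siEwsr1 replicate 3 stood nearest to the controls. Neuroblast markers were present, all 11 of 11 tested, with a summed level of 951 to 1059 RPKM in siEwsr1 and 877 to 893 RPKM in siCtrl. Of these 11, 5 rose (45.5%, where 2.46% of all genes rose) and 0 fell. Among those that rose were Isl1 (0.84), Ina (0.69), Mycn (0.47) and Chgb (0.45), with adjusted p from 0.00334 to 0.0374 in limma. Without siEwsr1 replicate 1, Isl1 and Ina were called, and without either siCtrl library none was. Without siEwsr1 replicate 3, 6 of the 11 rose and 1 fell, where 13.0% of all genes rose and 12.6% fell. With all 5 libraries, 9 of the 11 lay above 0 and 2 below, the lowest at -0.25. The part of this shift of the neuroblast markers in the S phase result was not tested. Of 10 fibroblast and mural markers Col3a1 and Lum were at 0, and the sum was 24.7 to 31.4 RPKM in siEwsr1 and 37.0 and 36.8 RPKM in siCtrl, nearly all of it Fbln1, and Acta2, 1 of 4 tested, fell by 1.56 (adjusted p = 0.00582), a call lost without either siCtrl library. Blood and endothelial markers summed to 1.02 to 1.46 RPKM in siEwsr1 and 1.22 and 1.30 RPKM in siCtrl, with Csf1r and Kdr at 0, and glial markers to 1.26 to 1.42 RPKM in siEwsr1 and 1.02 and 1.2 RPKM in siCtrl.

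No mitosis gene of the list passed the test after Ewsr1 knockdown. All 40 missed the threshold, where 5.16% of all tested genes passed it, and 5 of 40 had an unadjusted p under 0.05 (12.5%), where 22.2% of all genes did. Limma-voom on the recovered reads, run beside it, also called 0. The 40 log2 fold changes lay between -0.30 for Cdc25c and 0.40 for Spc24, with a median of 0.03, and 23 were above 0 and 17 below. Their summed level was 1568, 1599 and 1454 RPKM in the siEwsr1 libraries and 1504 and 1488 RPKM in the siCtrl libraries. In 34 of the 40 the 95% interval of the log2 fold change lay within 0.5 of 0, and the median half-width of these intervals was 0.23. In data simulated for this comparison 0 of 50 genes given a 1.2-fold difference were called and 14 of 50 given a 1.5-fold one, with no library deviating as a whole. RNA from a mixed culture cannot tell fewer mitotic cells from less of a transcript per cell.

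**Figure D1:**
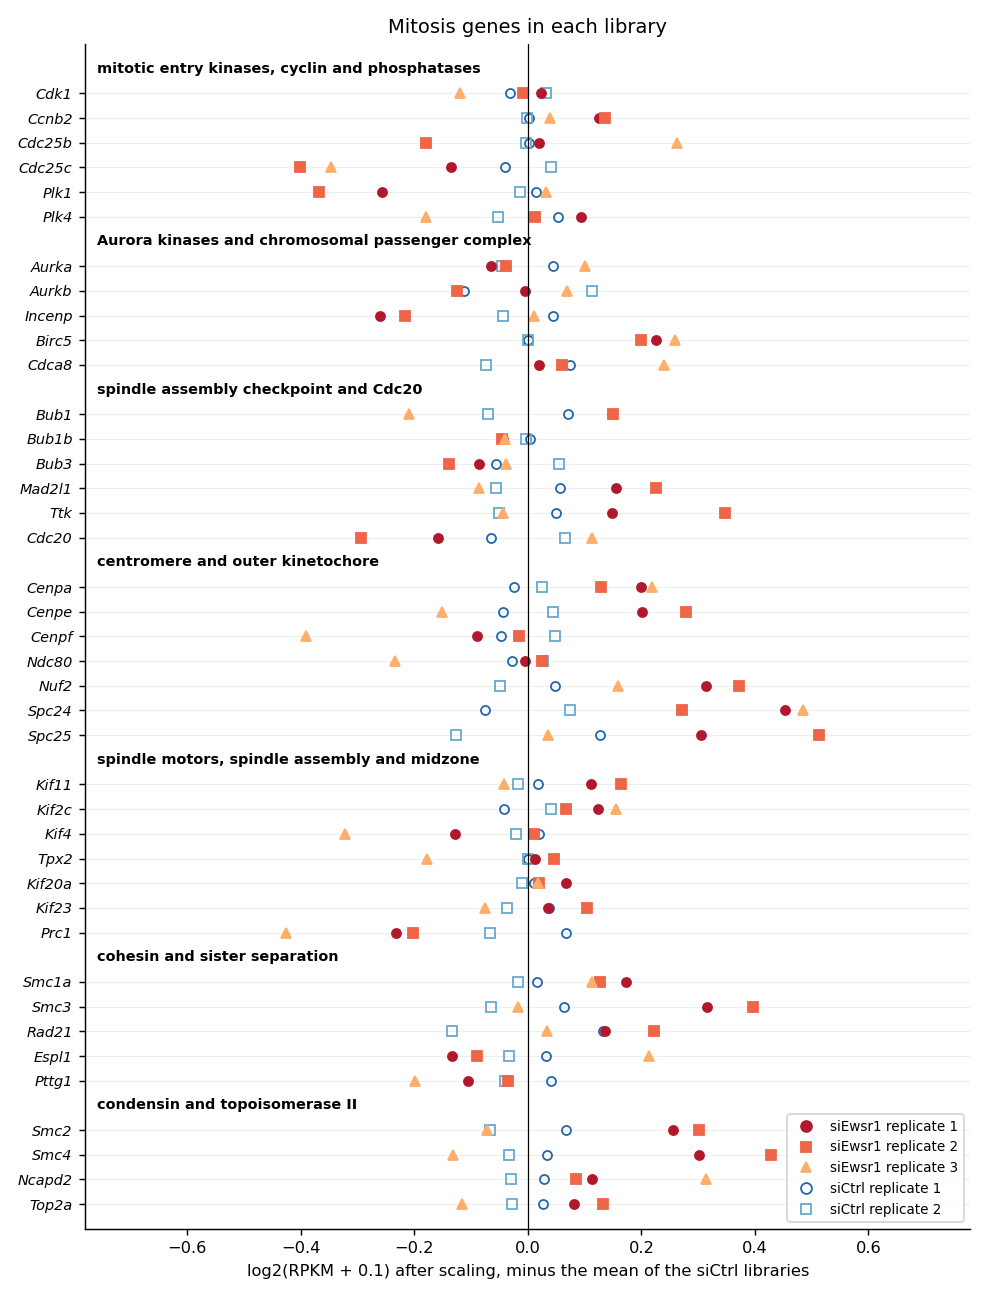
Each row is a mitosis gene and each point a library, as log2(RPKM + 0.1) after scaling minus the mean of the siCtrl libraries (siEwsr1 filled, siCtrl open), with genes grouped by role. Most siEwsr1 points lie within 0.4 of the controls, and siEwsr1 replicate 3 (triangles) often lies apart from replicates 1 and 2.

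Mitotic entry genes lay on both sides of their control levels. Cdk1, the kinase that drives entry into mitosis, stood at 78.7, 76.8 and 72.9 RPKM in siEwsr1 libraries and at 76.6 and 81.9 RPKM in siCtrl libraries, so the groups overlapped. Its log2 fold change was -0.03 (SE 0.09, 95% interval -0.23 to 0.16, adjusted p = 0.853, limma). Ccnb2, the gene of its partner cyclin B2, averaged 40.5 ± 0.932 RPKM in siEwsr1 and 38.4 ± 0.556 RPKM in siCtrl (SD, n = 3 and 2), with no overlap. Plk1, the polo-like kinase needed for centrosome maturation and spindle assembly, stood at 17.7, 16.4 and 22.2 RPKM in siEwsr1 libraries and at 21.7 and 21.7 RPKM in siCtrl libraries. Replicates 1 and 2 of siEwsr1 lay below both controls and replicate 3 above them, and the log2 fold change was -0.20 (SE 0.13, adjusted p = 0.388). Cdc25c, which encodes a phosphatase that activates the Cdk1 kinase, had the lowest fold change of the list, at 14.0, 11.6 and 12.3 RPKM in siEwsr1 libraries and 15.1 and 16.3 RPKM in siCtrl libraries. All siEwsr1 values were below both controls, and the log2 fold change of -0.30 (SE 0.12) had an adjusted p of 0.190. The related phosphatase gene Cdc25b had a log2 fold change of 0.03 and Plk4, the gene of the kinase of centriole duplication, one of -0.02.

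Genes of the Aurora kinases and the chromosomal passenger complex, which corrects wrong attachments and later sits at the midzone, overlapped between the groups except Birc5. Aurkb, the kinase of that complex, stood at 15.1, 13.9 and 16.3 RPKM in siEwsr1 libraries and at 14.2 and 17 RPKM in siCtrl libraries. The groups overlapped fully, and the log2 fold change was -0.02 (SE 0.11, 95% interval -0.27 to 0.23, adjusted p = 0.940). Aurka, the spindle pole kinase, had a log2 fold change near 0 and an interval of -0.21 to 0.21. Birc5, which encodes the subunit survivin, averaged 40.6 ± 1.41 RPKM in siEwsr1 and 35.2 ± 0.561 RPKM in siCtrl, without overlap, at 0.23 (SE 0.08, adjusted p = 0.145). The subunit genes Cdca8 (borealin, 0.11) and Incenp (the scaffold, -0.16) had adjusted p-values of 0.589 and 0.427.

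Spindle assembly checkpoint genes lay close to the controls, between -0.11 and 0.15 on the log2 scale. Bub1 (0.03), Bub1b (-0.04), Bub3 (-0.09), Mad2l1 (0.10) and the Mps1 kinase gene Ttk (0.15) had adjusted p-values from 0.493 to 0.916. Cdc20, which encodes the activator of the anaphase-promoting complex and the checkpoint's target, averaged 31.1 ± 5.01 RPKM in siEwsr1 and 33.9 ± 2.72 RPKM in siCtrl, at -0.11 on the log2 scale (SE 0.12, adjusted p = 0.639). Bub1b alone of these 6 did not overlap between the groups, at 45.8 ± 0.724 RPKM in siEwsr1 and 48.0 ± 0.634 RPKM in siCtrl.

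Outer kinetochore genes held the highest fold changes of the list, and the subunits of the Ndc80 complex, which grips microtubule ends, were unequal. Spc24 stood at 16.8, 14.8 and 17.5 RPKM in siEwsr1 libraries and at 11.7 and 13.3 RPKM in siCtrl libraries. Every siEwsr1 value exceeded both controls, and the log2 fold change was 0.40 (SE 0.11, 95% interval 0.16 to 0.65), with an adjusted p of 0.0661 that missed the threshold. Nuf2 stood at 27.4, 28.4 and 25.1 RPKM in siEwsr1 libraries and at 23.0 and 22.0 RPKM in siCtrl libraries, again without overlap, at 0.28 (SE 0.10, adjusted p = 0.118). Spc25 stood at 24.2, 27.8 and 20.5 RPKM in siEwsr1 libraries and at 21.6 and 18.5 RPKM in siCtrl libraries. Its groups overlapped because siEwsr1 replicate 3 lay between the controls, and its log2 fold change was 0.28 (SE 0.14, adjusted p = 0.260). Ndc80 itself averaged 15.6 ± 1.30 RPKM in siEwsr1 and 16.7 ± 0.721 RPKM in siCtrl, at -0.07 (adjusted p = 0.728), and no test compared the subunits with one another. Cenpa, the centromeric histone H3 variant gene, stood at 12.7, 12.0 and 13.1 RPKM in siEwsr1 libraries and at 11 and 11.6 RPKM in siCtrl libraries. Its groups did not overlap, and its log2 fold change was 0.18 (SE 0.09, 95% interval -0.01 to 0.38, adjusted p = 0.260). The kinesin gene Cenpe (0.11) and Cenpf (-0.17), whose products sit in the fibrous corona, had adjusted p-values of 0.648 and 0.434.

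Spindle motor and midzone genes lay near 0 apart from Prc1, which encodes the microtubule bundler of the midzone. Prc1 stood at 25.3, 25.8 and 22.7 RPKM in siEwsr1 libraries and at 31.5 and 29.4 RPKM in siCtrl libraries, all below both controls. Its log2 fold change was -0.29 (SE 0.10, 95% interval -0.50 to -0.07, adjusted p = 0.123). Its partners at the midzone were closer to the controls: Kif4, a chromosome-bound kinesin gene, at -0.15, Kif20a at 0.03 and Kif23, a centralspindlin subunit gene, at 0.02. Of the spindle genes, Kif11 (the motor that separates poles, 0.08), Kif2c (a microtubule depolymerase, 0.12) and Tpx2 (an Aurora A activator, -0.04) had adjusted p-values from 0.492 to 0.847.

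Cohesin and condensin genes had log2 fold changes above 0, none of them past the test. Smc3 stood at 82.0, 86.6 and 66.6 RPKM in siEwsr1 libraries and at 69.7 and 65.2 RPKM in siCtrl libraries. Replicates 1 and 2 exceeded both controls and replicate 3 lay between them, so the log2 fold change of 0.23 (SE 0.12, 95% interval -0.04 to 0.50) had an adjusted p of 0.293. Its partner Smc1a was steadier, at 77.4 ± 1.35 RPKM in siEwsr1 and 71.5 ± 0.0126 RPKM in siCtrl, without overlap, at 0.14 (adjusted p = 0.353). Rad21, the kleisin that separase cuts, had a log2 fold change of 0.13 that became -0.01 without siCtrl replicate 2, the separase gene Espl1 one near 0 with an interval of -0.26 to 0.25, and the securin gene Pttg1 one of -0.11. The condensin genes Smc2 (0.16), Smc4 (0.20) and Ncapd2 (0.17) had adjusted p-values from 0.343 to 0.456. Top2a, the most abundant member of the list per exonic length, averaged 179 ± 13.6 RPKM in siEwsr1 and 177 ± 1.85 RPKM in siCtrl, at 0.03 (adjusted p = 0.877).

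**Figure D2:**
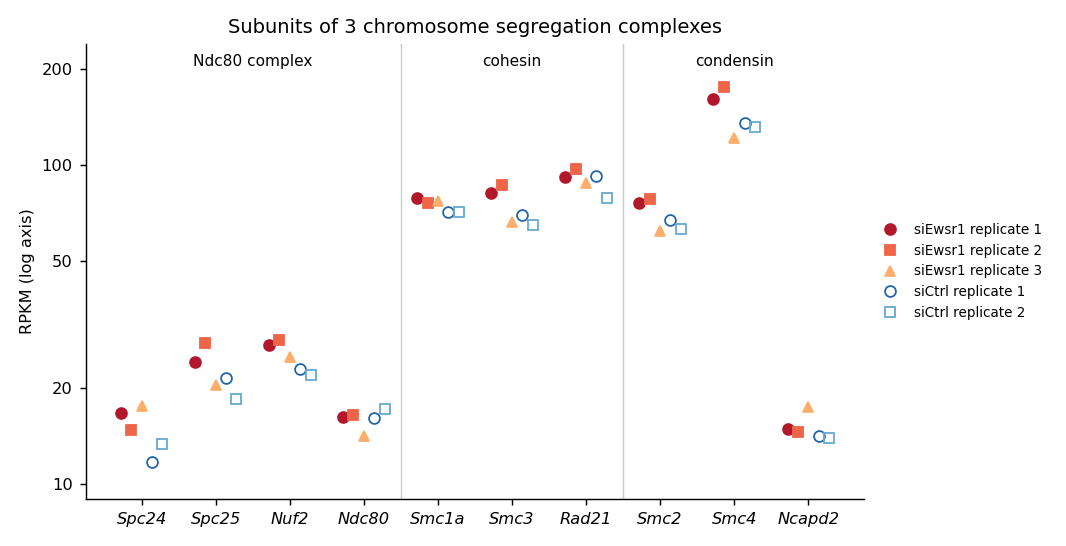
RPKM on a log axis in each library for subunit genes of the Ndc80 complex, cohesin and condensin, with siEwsr1 filled and left of siCtrl. Spc24, Nuf2, Smc1a and Ncapd2 show all siEwsr1 values above both siCtrl values, whereas for Spc25, Smc3, Smc2 and Smc4 replicate 3 falls among or below the controls.

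Counted over libraries in RPKM, all siEwsr1 values exceeded both siCtrl values in 7 of the 40 (Ccnb2, Birc5, Cenpa, Nuf2, Spc24, Smc1a and Ncapd2), or 17.5%, where 18.6% of all tested genes did so. All lay below both in 5 (Cdc25c, Bub1b, Kif4, Prc1 and Pttg1), or 12.5%, where 21.3% of all genes did. Either way the groups did not overlap in 30% of the list and 39.9% of all genes. On the scaled values of the test, 9 lay above both, with Kif2c and Kif20a added (22.5% against 19.9% of all genes), and 3 lay below both, without Kif4 and Pttg1 (7.5% against 19.9%). With 3 and 2 libraries the smallest p of an exact permutation test is 0.1.

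S phase genes gave another picture in the same libraries. Of 53, all tested, 9 rose (17%, where 2.46% of all genes rose) and 0 fell (where 2.70% of all genes fell). Their median log2 fold change was 0.23, and 47 of them were above 0 (88.7%, where 49.3% of all genes were). The genes that rose were E2f1 (0.83), Ccne1 (0.69), Rfc5 (0.68), Mcm7 (0.49), Mcm5 (0.47), Mcm6 (0.45), Cdc45 (0.44), Rrm2 (0.43) and Uhrf1 (0.38), with adjusted p from 0.00365 to 0.0452. Relative to the siCtrl mean, the median over the 53 was 0.22 in siEwsr1 replicate 1, 0.20 in replicate 2 and 0.21 in replicate 3, with 0.001 between both siCtrl libraries. For the 40 mitosis genes the same medians were 0.07, 0.06 and -0.03, with -0.04 between the siCtrl libraries. S phase genes did not overlap between the groups with siEwsr1 higher in 35 of 53 (66.0%), where 18.6% of all genes did so. Their summed level was 1774, 1742 and 1765 RPKM in siEwsr1 and 1497 and 1512 RPKM in siCtrl. The abundant S phase genes Pcna (0.34, adjusted p = 0.0516), Rpa3 (0.32), Orc6 (0.26) and Mcm3 (0.20) were not called. The count of 9 became 2 without siEwsr1 replicate 1 and 0 without either siCtrl library or with no filter on low reads, and 23 without siEwsr1 replicate 3, while the median stayed between 0.21 and 0.23 with any library left out. Calls over all genes moved as well: without siEwsr1 replicate 3, 1905 of them rose, or 13.0%, where 2.46% did with every library kept. No test compared the mitosis list with the S phase list, and the direction of the S phase genes was known from earlier work on these data.

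**Figure D3:**
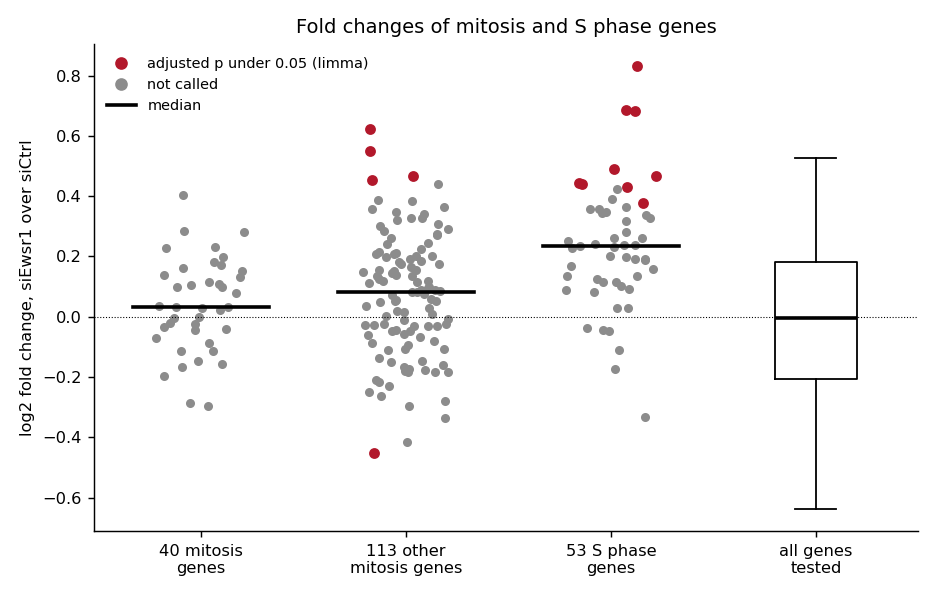
Log2 fold change of siEwsr1 over siCtrl for each gene (points, jittered sideways, red where the adjusted p is under 0.05) and list median (bar), beside a box of all 14896 tested genes with whiskers at the 5th and 95th percentiles. The mitosis genes centre on 0.03 with none called, and the S phase genes on 0.23 with 9 called.

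A wider list of other mitosis genes, all tested, held 16 genes of mitotic entry and mitotic transcription, 33 of kinetochore and checkpoint, 30 of spindle, centrosome and cytokinesis, 16 of cohesin, condensin and their regulators and 18 of the anaphase-promoting complex. Their median log2 fold change was 0.08, and 4 rose, 1 fell and 108 missed the threshold, so 4.4% were called, near the 5.16% of all tested genes. Mastl, which encodes the Greatwall kinase that restrains the phosphatase opposing Cdk1, averaged 21 ± 2.54 RPKM in siEwsr1 and 13.8 ± 0.229 RPKM in siCtrl, and rose by 0.62 (SE 0.11, adjusted p = 0.0145). The cohesion genes Cdca5 (sororin, 0.55, adjusted p = 0.0297) and Esco2 (a cohesin acetyltransferase, 0.47, adjusted p = 0.0432) rose, as did Fbxo5 (Emi1, an inhibitor of the anaphase-promoting complex, 0.45, adjusted p = 0.0318). Nek2, the gene of a centrosome kinase, averaged 11.3 ± 1.23 RPKM in siEwsr1 and 15.6 ± 0.65 RPKM in siCtrl, and fell by 0.45 (SE 0.11, adjusted p = 0.0400). The abundant genes Ccnb1 (-0.07), Ccna2 (0.05), Mki67 (0.18) and Cdc16 (0.12) were not called. By sublist, 24 of 33 kinetochore and checkpoint genes were above 0 with none called (median 0.15), where 49.3% of all genes were above 0. Relative to the siCtrl mean, their medians were 0.18, 0.23 and 0.05 in siEwsr1 replicates 1, 2 and 3. With the trend on GC content removed (described below), their median log2 fold change was 0.07. Of 30 spindle, centrosome and cytokinesis genes 16 were above 0 with none called (0.03). The 18 anaphase-promoting complex genes had a median of -0.01 with Fbxo5 called. Of 14 tested arrest and p53 target genes, 1 was called (7.14%, where 5.16% of all genes were). It was Rb1, the retinoblastoma gene, which rose by 0.60 (adjusted p = 0.0244, limma). Cdkn1b (0.52, adjusted p = 0.0606), Ccng1 (0.26), Mdm2 (0.11) and Cdkn2a (-0.26) were not called. Above 0 lay 12 of the 14 (85.7%, where 49.3% of all genes did). Groups did not overlap, with siEwsr1 higher, in 6 (42.9%, against 18.6% of all genes), and with siEwsr1 lower in 1 (7.14%, against 21.3%). Without siEwsr1 replicate 1, siCtrl replicate 1 or siCtrl replicate 2, Mastl, Cdca5, Esco2, Fbxo5, Nek2 and Rb1 missed the threshold, with adjusted p from 0.0992 to 0.441. Without siEwsr1 replicate 2, Mastl, Cdca5 and Rb1 were called, and without siEwsr1 replicate 3 all 6 were.

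The spread among the siEwsr1 libraries had an order of its own. In replicate 3 the condensin gene Smc4, picked here after its values were seen, stood at 122 RPKM, against 161 and 176 RPKM in replicates 1 and 2 and 135 and 132 RPKM in siCtrl. The difference of replicate 3 from the mean of replicates 1 and 2 followed the GC content of the longest coding transcript across the 40 genes, with a Spearman rho of 0.84 and a Pearson r of 0.89. The same rho was 0.89 over the 53 S phase genes and 0.72 over 11919 tested coding genes with an annotated 3′ UTR. These are descriptions across genes of the same 5 libraries, which are not independent replicates. Of the 10 members of lowest GC content (39.7% to 43.0%), 9 were lower in replicate 3, with a median of -0.31, and Bub3 was the exception. The 10 of highest GC content (51.4% to 56.1%, among them Plk1, Cdc25b, Cdc20 and Espl1) were all higher in replicate 3, with a median of 0.23. Other libraries differed along GC content as well. Between siCtrl replicates 2 and 1 rho was 0.34 over the 40, 0.71 over the S phase genes, 0.49 over the other mitosis genes and 0.29 over the 11919, and between siEwsr1 replicates 2 and 1 it was -0.50, -0.29, -0.44 and -0.21 over the same sets. For the log2 fold change itself rho was -0.25 over the 40, -0.04 over the S phase genes, -0.48 over the other mitosis genes and -0.24 over the 11919. What set replicate 3 apart was not tested.

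**Figure D4:**
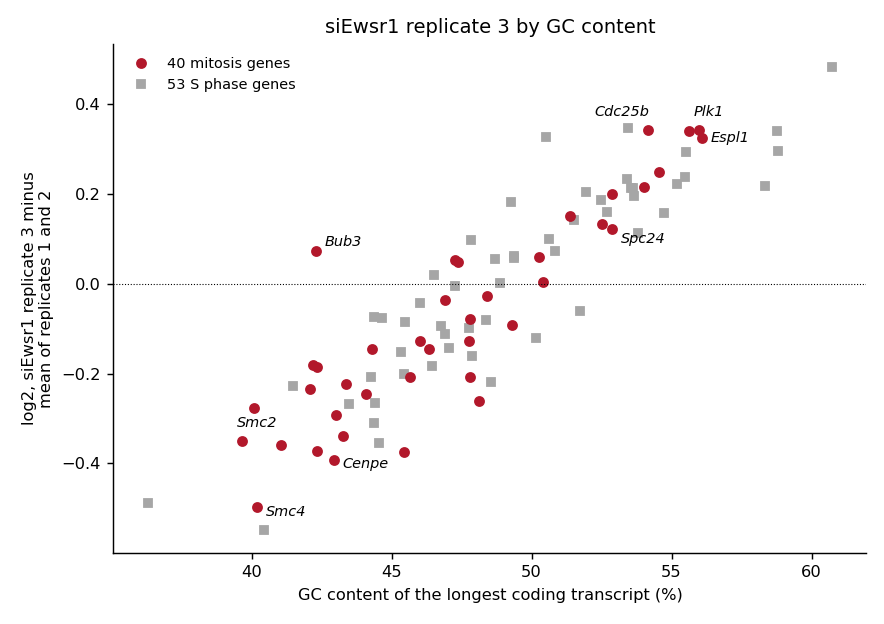
Log2 difference of siEwsr1 replicate 3 from the mean of siEwsr1 replicates 1 and 2 against the GC content of the longest coding transcript, for the 40 mitosis genes (red) and 53 S phase genes (grey). Both lists run from about -0.5 at low GC content to about 0.3 at high GC content, with Bub3 off the trend.

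Which mitosis genes passed the test changed when this library was left out and when the GC trend was removed. Without siEwsr1 replicate 3, 10 of the 40 rose and 3 fell, where 13.0% of all tested genes rose and 12.6% fell (25.6% in all). Those that rose were Spc25 (0.41), Smc4 (0.36), Spc24 (0.36), Smc3 (0.36), Nuf2 (0.34), Smc2 (0.28), Ttk (0.25), Cenpe (0.24), Birc5 (0.21) and Mad2l1 (0.19), with adjusted p from 5.79e-04 to 0.0497, and those that fell were Plk1 (-0.31), Incenp (-0.24) and Prc1 (-0.22). After the trend on GC content was removed from each library, with all 5 kept, 4 rose and 3 fell, where 9.61% of all genes rose and 8.90% fell (18.5% in all). The genes that rose then were Spc24 (0.44, adjusted p = 0.00184), Birc5 (0.21), Ncapd2 (0.21) and Nuf2 (0.20), and those that fell were Prc1 (-0.32, adjusted p = 0.00112), Cdc25c (-0.31) and Cenpf (-0.23). That fit also removes any true difference between the groups that follows GC content. Spc24, Nuf2, Birc5 and Prc1 were called in both of these fits, in the same direction, and in neither fit was Cdk1, Aurka, Aurkb, Bub1 or Top2a called. Both fits use the same libraries, so they are not independent of each other. With the replicate number added as a term (replicate block), Birc5 and Prc1 missed the threshold (adjusted p = 0.0818 and 0.0681, limma). Without siEwsr1 replicate 2, Spc24 was the member called. Smc2, Smc4 and Smc3, called without replicate 3, had log2 fold changes of 0.06, 0.10 and 0.15 once the GC trend was removed, and were not called. The median over the 40 was 0.06 without replicate 3 and 0.02 with the GC trend removed, and that of the S phase genes was 0.21 and 0.22.

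**Figure D5:**
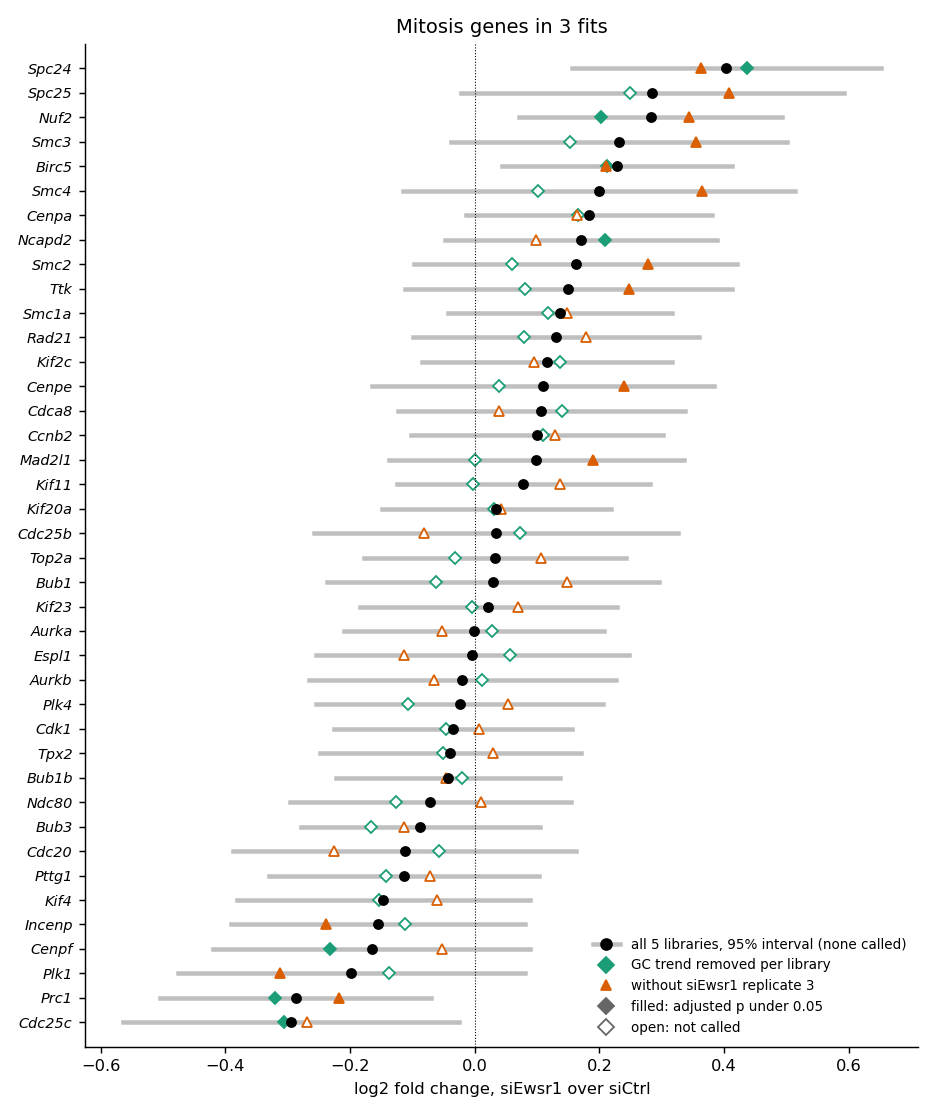
Log2 fold change of siEwsr1 over siCtrl for each mitosis gene in 3 fits: all 5 libraries with the 95% interval (black, none called), the GC trend removed per library (green) and siEwsr1 replicate 3 left out (orange), filled where the adjusted p is under 0.05. Spc24, Nuf2, Birc5 and Prc1 are filled in both alternative fits.

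Few members and few S phase genes carry the 3′ UTR 7-mers that earlier work on these fold changes singled out. Because of that origin the counts are no independent evidence. TCACTGC was present in the 3′ UTR of 2 of the 40 (Birc5 and Cdca8, 5%) and of 5.66% of S phase genes, where 14.3% of tested coding genes with a 3′ UTR had it. GCAATTT was present in 2 of the 40 (Prc1 and Mad2l1, 5%) and in 7.55% of S phase genes, near the 8.39% of those coding genes.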

How the data were processed

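The submitters' processing notes name STAR 2.5.2b, featureCounts 1.5.1, the build GRCm38 and edgeR without a version. Annotation and strand setting were not given in the sources used here. Deposited values behave as RPKM, and those of 1 or more (12129 to 12449 per library) lost their decimal point. The decimal position was restored from the condition that value, exonic length (GENCODE M21, or solved from the values for 4 members) and library total give whole reads, within 1e-06, and where several positions were whole, by agreement between libraries without use of group labels. This kept 26952 of 27255 genes above 0. For 16 members a position above the lowest was read in at least 1 library, and neighbouring positions differ 10-fold. In a test on simulated data for this comparison, run on 6000 genes, 5786 of 5800 unchanged genes were kept, 50 of 50 changed by 1.5-fold, 47 of 50 by 2-fold and 30 of 50 by 4-fold, all read correctly. Of 50 changed by 10-fold, 47 were kept and 26 read correctly, so genes of large change can be lost or misread.

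Genes were tested if 2 or more libraries held 10 or more reads, after rescaling to the median library size. The test was limma 3.58.1 (R 4.3.3) on log2(RPKM + 0.1), after trimmed-mean scaling recomputed from the recovered reads. The group was the only term, the variance trend followed the mean reads, moderation was robust, and p-values were two-sided with Benjamini-Hochberg adjustment over all tested genes, called under 0.05. Tested on simulated reads for this comparison among 14539 genes, 39 of 50 genes given a 2-fold difference were called, as were 2 of 14339 unchanged genes, with no library deviating as a whole. GC content is that of the longest coding transcript, and its trend was removed per library by lowess (span 0.3), with 5 genes lacking a transcript left as they were. Samples were grouped by their titles. The siRNA concentration is labelled 100 µM, which is not interpreted here. The members and all lists were chosen with earlier results of these data known. Named were all 40 members, every called gene of the other cell cycle lists and up to 4 of their most abundant genes not called, with full per-library values for Cdk1, Aurkb, Plk1, Cenpa, Smc3 and the 3 highest and 3 lowest fold changes.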

Additional observations from a re-analysis of the deposited data

How the results depend on the processing

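A total of 18 alternative fits was run, 3 of them chosen after seeing the data (limma-voom on the recovered reads, a variance trend on the RPKM level and the GC correction). The other count-model fits that were planned on recovered reads were not run, as the deposited values are not counts. Limma-voom, which takes the recovered reads as counts, was run in their place. Of 700 values of members under the alternatives, 635 kept their direction and their side of the threshold, 29 passed it and 36, from 13 genes, had the other sign. Of members whose groups do not overlap, 3 lay lower and 9 higher on scaled values, a comparison chosen after seeing the data. The least covered member had 408 reads in the library where it was lowest.

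Members called higher and lower numbered 0 and 0 under each alternative with all 5 libraries except the GC correction (4 and 3) and the replicate block. S phase genes called higher numbered 5 with a pseudocount of 1, 0 with no filter on low reads, 0 with no trend or robust moderation, 4 with the variance trend on the RPKM level and 28 with the GC correction, which called 1 lower (Tyms). In the same order, other mitosis genes called higher numbered 0, 0, 0, 0 and 18, and those called lower 0, 0, 0, 0 and 8. Other mitosis genes called lower also numbered 3 with a pseudocount of 0.01, with the filter of 50 reads and with limma-voom, and 2 with scaling to the library total. Over all genes, 169 rose and 207 fell with a pseudocount of 1, 20 and 41 with no filter, 0 and 0 with no trend or robust moderation, 118 and 142 with the trend on the RPKM level, and 1432 and 1326 with the GC correction. The S phase median was 0.21 with a pseudocount of 1 or library total scaling and 0.26 with the lowest decimal position only. Ewsr1 kept its log2 fold change of -0.95 with no trend or robust moderation, at an adjusted p of 0.0707, which missed the threshold. With the GC correction the log2 fold change was 0.03 for Aurka, 0.01 for Aurkb, -0.06 for Bub1, -0.003 for Kif11, -0.004 for Kif23, 0.06 for Espl1 and -0.03 for Top2a. Aurka stood at 0.0008 with median-of-ratios scaling and 0.0001 with limma-voom, and Kif23 at -0.0006 with library total scaling. Why these counts moved was not tested.

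The replicate numbers of the titles were not shown to pair the libraries: deviations of same-numbered libraries from their group means correlated at 0.0311 for replicate 1 and -0.121 for replicate 2. With the replicate block, in which siEwsr1 replicate 3 has no partner and informs no group difference, 7 members were called higher (Cenpe, Nuf2, Spc24, Spc25, Smc3, Smc2 and Smc4) and 1 lower (Plk1). The block leaves fewer residual degrees of freedom per gene than the 3 of the main fit. Its p-values therefore lean more on the variance shared between genes. The block called 22 S phase genes higher and 1 lower (Pold2), with a median of 0.21, 33 other mitosis genes higher and 11 lower, and 1651 and 1642 of all genes. Under the block the log2 fold change was 0.01 for Cdk1, -0.08 for Cdc25b, 0.05 for Plk4, 0.01 for Ndc80 and 0.03 for Tpx2.

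Leaving out 1 library in turn, members called higher numbered 0 to 10 and members called lower 0 to 3. S phase genes called higher numbered 0 to 23 and called lower 0 to 1, with a median of 0.21 to 0.23. Other mitosis genes numbered 0 to 37 higher and 0 to 14 lower, and all genes 2 to 1905 higher and 3 to 1848 lower. The highest counts came without siEwsr1 replicate 3. Without siCtrl replicate 1 or siCtrl replicate 2 none of the 3 cell cycle lists had a called gene, and without siEwsr1 replicate 1 the 2 called were S phase genes. Without siEwsr1 replicate 2, Spc24 was the member called. A lone siCtrl library was assumed to vary like the siEwsr1 libraries. Ewsr1 lay between -0.97 and -0.94, with an adjusted p of 0.0544 without siCtrl replicate 2. Log2 fold changes that changed sign ran from -0.07 to 0.01 for Cdk1, -0.08 to 0.14 for Cdc25b, -0.08 to 0.05 for Plk4, -0.05 to 0.04 for Aurka, -0.14 to 0.09 for Aurkb and -0.04 to 0.15 for Bub1. They ran from -0.12 to 0.01 for Ndc80, -0.08 to 0.03 for Tpx2, -0.02 to 0.07 for Kif23, -0.01 to 0.26 for Rad21, -0.11 to 0.06 for Espl1, -0.02 to 0.11 for Top2a and -0.005 to 0.13 for Ccna2.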
